A study of Mus musculus with 8 samples.

Results

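The miR-199 and miR-214 microRNAs were examined in mouse kidney after systemic lipopolysaccharide. The 5 entries mmu-miR-199a-3p, mmu-miR-199a-5p, mmu-miR-199b-5p, mmu-miR-214-3p and mmu-miR-214-5p (written without mmu, the prefix for mouse, from here on) were taken by name from the 1881 mouse miRNAs on the array. Of these, 4 were above background on all 8 arrays and miR-214-5p was above background on none. The LPS group consisted of 4 kidneys (replicates 6, 10, 11 and 12) from mice injected with LPS, a constituent of the envelope of Gram-negative bacteria, at 10 µg per g of body weight into the peritoneal cavity. The sham group consisted of 4 kidneys (replicates 5, 6, 7 and 8) from mice given normal saline. Kidneys were taken at 24 h as a model of acute kidney injury in sepsis, and Cy3-labelled total RNA was hybridised to Agilent miRNA arrays. The labels give no strain, sex or age and do not say that each sample is a separate animal. P-values therefore measure the spread between these samples, which may be technical.

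MicroRNAs are cut from a hairpin precursor, whose 5′ and 3′ arms each can yield a mature strand. Bases 2 to 8 of the mature strand, the seed, pair with target mRNAs. The miR-199a hairpin Mir199a-2 and the hairpin of miR-214 lie on a shared non-coding transcript, Dnm3os, which is active in mesenchymal cells. MiR-199a and miR-214 are known from fibroblasts, mesangial cells, pericytes and smooth muscle. In kidney, miR-214 and miR-199a have been studied chiefly in fibrosis.

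In RefSeq (build GRCm38.p6) Mir199a-2 lies on the plus strand of chromosome 1 from 162217814 to 162217923 and Mir214 on the same strand from 162223368 to 162223477. The hairpins are 5444 bases apart, and both overlap Dnm3os (162217623 to 162225550) and Dnm3. Mir199a-1 lies on the minus strand of chromosome 9 from 21496495 to 21496564, overlapping Dnm2. Mir199b lies on the plus strand of chromosome 2 from 32318460 to 32318569, overlapping Dnm1. RefSeq held a mature sequence for 4 of the 5 entries, shown here with the seed in capitals because the arms of each hairpin carry different seeds.
miR-199a-5p: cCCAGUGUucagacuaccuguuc
miR-199a-3p: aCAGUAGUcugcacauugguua
miR-214-5p: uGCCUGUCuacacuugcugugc
miR-214-3p: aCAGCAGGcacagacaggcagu

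The next precursors are shown because they decide what each probe can read. Capitals mark the annotated mature arms and, in Mir199b, also the stretch on the 5′ arm that is complementary to the miR-199b-5p probes.
Mir199a-2: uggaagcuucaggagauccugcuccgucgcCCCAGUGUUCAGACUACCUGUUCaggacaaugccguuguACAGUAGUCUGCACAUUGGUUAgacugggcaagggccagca
Mir199b: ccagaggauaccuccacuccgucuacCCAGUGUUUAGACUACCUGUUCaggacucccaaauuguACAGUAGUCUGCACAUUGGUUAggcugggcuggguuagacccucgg
The 3′ arm of both precursors gives the same mature sequence. The complement of each miR-199a-3p probe occurs in Mir199a-1, Mir199a-2 and Mir199b, so the signal called miR-199a-3p is the sum over 3 hairpins. The array has no entry of its own for miR-199b-3p. The 5′ arms can be told apart by 1 base. Counted from the 5′ end of the probe, the miR-199b-5p probes differ from the miR-199a-5p probes by G14A, in capitals here, in the letters that they share.
miR-199a-5p, 18-base probe: gaacaggtagtctGaaca
miR-199a-5p, 19-base probe: gaacaggtagtctGaacac
miR-199b-5p, 21-base probe: gaacaggtagtctAaacactg
miR-199b-5p, 22-base probe: gaacaggtagtctAaacactgg
In the deposited files, which use build mm9, the miR-199a-5p probes are listed as unmapped. The 20-base miR-199a-3p probe is mapped to chromosome 2 from 32174047 to 32174065 and the 22-base miR-199b-5p probe to chromosome 2 from 32174007 to 32174027, each 1 base shorter than the probe. Cross-hybridisation between the 5′ arms was not tested.

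The arrays detected 342 to 359 miRNAs in LPS kidneys and 336 to 375 in sham kidneys (2-sided exact permutation p = 0.829). Labelling spike-ins were 0.22 log2 units higher on LPS arrays (exact permutation p = 0.0286, the smallest that 4 against 4 arrays allow). All arrays lay on 1 slide, with the LPS arrays in row 2 and the sham arrays in row 1, and the effects of row and group cannot be told apart. The kidney markers miR-192-5p, miR-194-5p, miR-204-5p and miR-10a-5p were detected on all arrays, miR-215-5p on none, and liver-specific miR-122-5p on none.

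The 5p arms of miR-199 were lower in LPS kidneys. Values are in log2 units, where 0 is the array's own 75th percentile over detected probes. The level depends on the probe, so levels are compared between groups and not between miRNAs. For miR-199b-5p the level was -0.40, -0.14, -0.48 and -0.55 in LPS replicates 6, 10, 11 and 12, against 0.04, 0.002, -0.12 and -0.11 in sham replicates 5, 6, 7 and 8. All LPS arrays lay below all sham arrays, with LPS replicate 10 nearest to them. The mean was -0.39 ± 0.18 in LPS and -0.05 ± 0.08 in sham kidneys (SD, n = 4 each). MiR-199b-5p fell by 0.35 ± 0.09 (SE) on the log2 scale, to 0.787 of the sham level (limma, adjusted p = 0.0216, 95% interval -0.56 to -0.13). In bulk tissue fewer cells of a type and less RNA per cell cannot be told apart.

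MiR-199a-5p, cut from the 5′ arm of the Dnm3os hairpin and of its copy on chromosome 9, moved the same way. Its level was -0.76, -0.55, -0.78 and -0.79 in LPS replicates 6, 10, 11 and 12, against -0.37, -0.46, -0.49 and -0.58 in sham replicates 5, 6, 7 and 8. The groups overlapped through LPS replicate 10, which lay above sham replicate 8. MiR-199a-5p fell by 0.25 ± 0.07 on the log2 scale, to 0.842 of the sham level (adjusted p = 0.0309, 95% interval -0.42 to -0.08). Of the 4 tested members, 2 were called lower and 0 higher, and in 1 the groups did not overlap. Among all 338 miRNAs tested, 40.2% were called, 25.4% lower and 14.8% higher, the groups did not overlap in 37.0%, and the median difference was -0.08. The members' share of calls is thus near that of the array. The call of miR-199a-5p was lost when any of sham replicates 5, 6 or 7 or LPS replicates 6, 11 or 12 was left out (adjusted p = 0.0717 to 0.0833, differences of -0.25 to -0.20). For miR-199b-5p the call did not survive the removal of sham 5, sham 6, LPS 6 or LPS 11 (adjusted p = 0.0506 to 0.0658).

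The 3p arm shared by the miR-199 hairpins did not follow the 5p arms. The level of miR-199a-3p was 1.59, 1.81, 1.65 and 1.56 in LPS replicates 6, 10, 11 and 12, against 1.56, 1.52, 1.47 and 1.41 in sham replicates 5, 6, 7 and 8. The lowest LPS array and the highest sham array differed by less than 0.01, with the sham array the higher. The mean was 1.65 ± 0.11 in LPS and 1.49 ± 0.06 in sham kidneys (SD, n = 4 each). The difference was 0.16 ± 0.07 (SE), with a 95% interval of 0.004 to 0.32, and did not pass the test across all miRNAs (limma, adjusted p = 0.0973).

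MiR-214-3p, from the neighbouring hairpin, did not pass either. Its level was -2.43, -2.18, -2.38 and -2.54 in LPS replicates 6, 10, 11 and 12, against -2.10, -2.23, -2.34 and -2.38 in sham replicates 5, 6, 7 and 8. The groups overlapped widely, and the difference was -0.12 ± 0.09 (SE, adjusted p = 0.323, 95% interval -0.34 to 0.09). The interval includes 0 and a fall of the size measured for miR-199a-5p. The 12-base probe of miR-214-3p gave a mean processed signal of 24.6 to 33.4 over the 8 arrays, and the 13-base probe 60.5 to 85.5. The lowest signal among detected probes was 16.6 to 20.4, so the 12-base probe read near the detection limit.

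MiR-214-5p, from the other arm of the same hairpin, had 0 of 30 spots well above background on every array. Its longest probe gave a mean processed signal of 3.86, 9.15, 8.77 and 3.71 in LPS replicates 6, 10, 11 and 12, against 4.43, 4.95, 4.67 and 6.33 in sham replicates 5, 6, 7 and 8. The lowest signal among detected probes was 16.8 to 19.5 on LPS arrays and 16.6 to 20.4 on sham arrays. No change could therefore be measured for miR-214-5p, and the arms of miR-214 could not be compared.

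**Figure D1:**
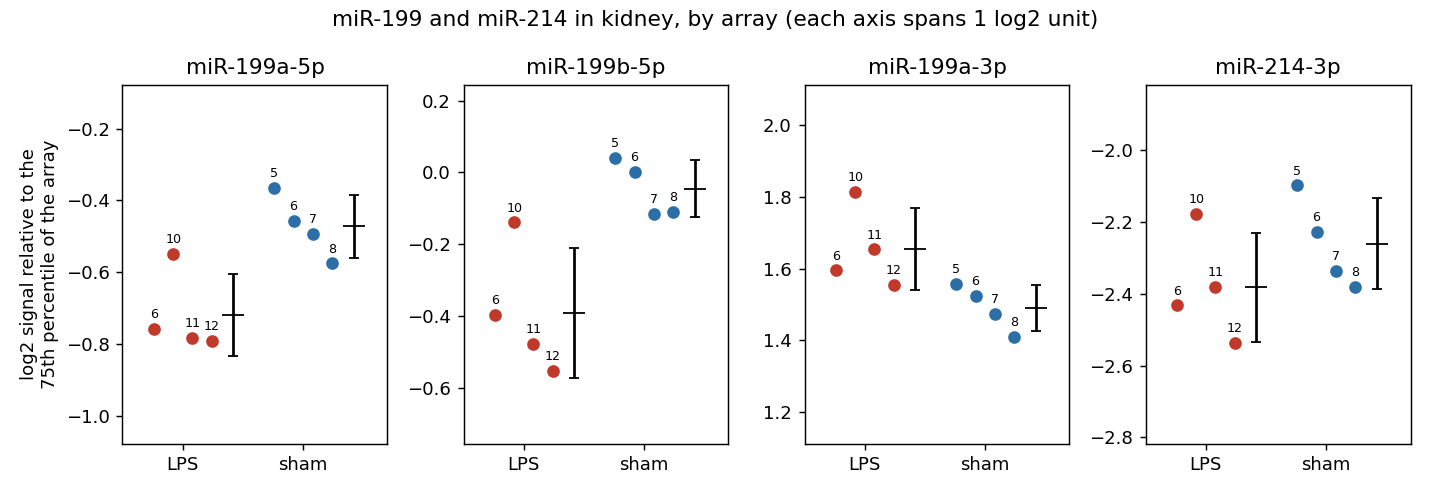
Log2 signal with the array's own 75th percentile at 0 (y axis) for the 4 detected miRNAs, in LPS (red) and sham (blue) kidneys, with 1 point per array labelled by replicate number and black bars for mean ± SD of 4 arrays. Both 5p arms sit lower in LPS, miR-199b-5p without overlap of the groups, and LPS replicate 10 is the highest LPS array in each panel.

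The signals read as the 3p and 5p arms of miR-199a differed in their response. They do not cover the same hairpins: the 3p probes also match Mir199b, while the 5p probes match only Mir199a-1 and Mir199a-2. The log2 ratio of miR-199a-3p over miR-199a-5p on the same array was 2.35, 2.36, 2.44 and 2.35 in LPS replicates 6, 10, 11 and 12, against 1.92, 1.98, 1.97 and 1.99 in sham replicates 5, 6, 7 and 8. All LPS arrays lay above all sham arrays, and the gap between the groups was several times the spread within either. The ratio averaged 2.37 ± 0.04 in LPS and 1.96 ± 0.03 in sham kidneys (SD, n = 4 each). It rose by 0.41 ± 0.04 (SE) on the log2 scale, 1.33-fold (limma across 35 hairpins with both arms tested, adjusted p = 4.67e-05, 95% interval 0.33 to 0.49). The ratio shows unequal change of these signals and gives no order of their levels. Whether it arose within 1 hairpin was not tested.

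Unequal change was not unusual among the hairpins measured. The 3p over 5p ratio was called in 34.3% of the 35 hairpins and higher in LPS in 22.9%, with a median difference of 0.01. The groups did not overlap in 34.3% of the hairpins, and in 17.1% with the LPS arrays higher. By size of the difference miR-199a ranked 4, after miR-21a, miR-149 and miR-466i, and by p-value it ranked 2. The change was less than that of miR-21a (2.89), whose 3p arm was detected on 0 of 4 sham arrays. The 3p arm of miR-149 was at the floor set for low signals (-4.68) in sham replicates 5 and 6.

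**Figure D2:**
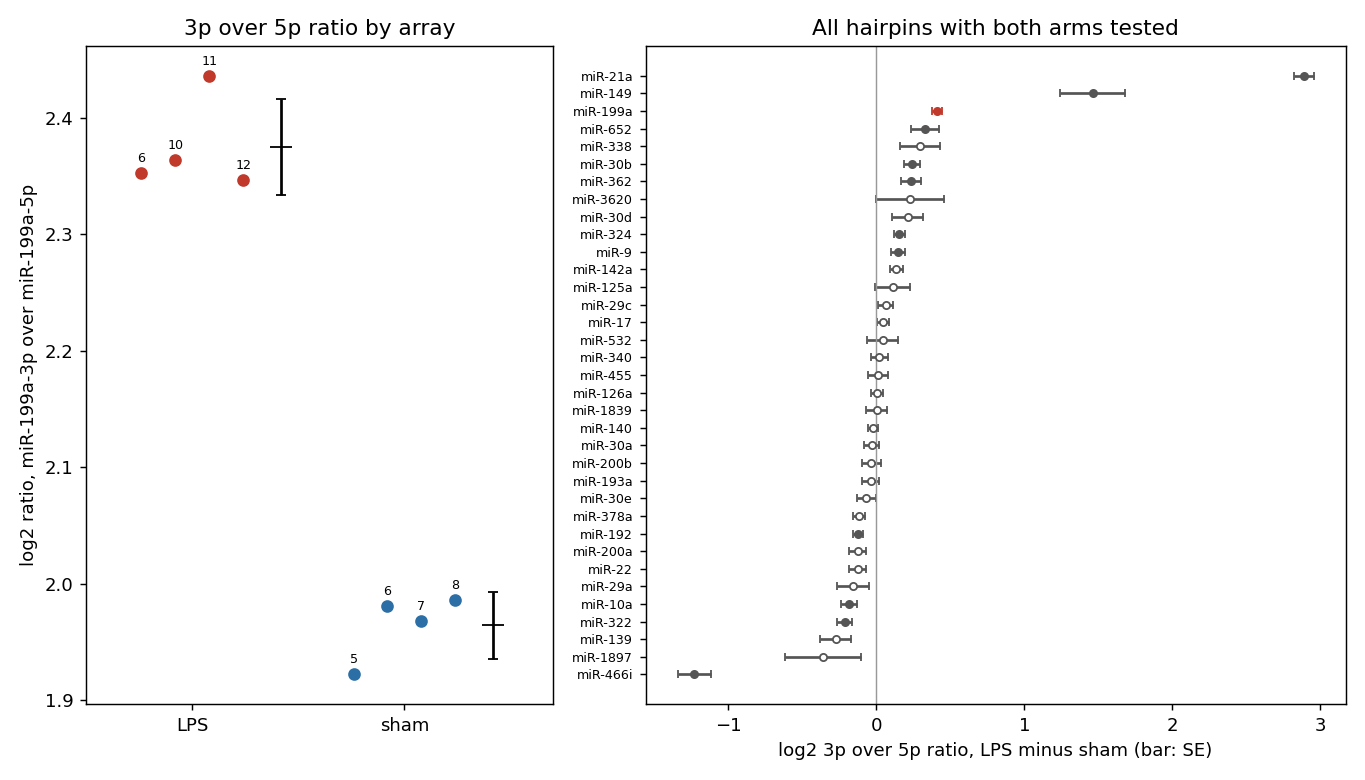
Left, log2 ratio of miR-199a-3p over miR-199a-5p (y axis) on each LPS (red) and sham (blue) array, with black bars for mean ± SD of 4 arrays. The 3p probes also match Mir199b, which the 5p probes do not. Right, the difference in the log2 3p over 5p ratio, LPS minus sham, with its SE for each of 35 hairpins, filled where adjusted p is under 0.05, with miR-199a in red at 0.41.

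The direction of the arm difference did not rest on 1 probe, but its size did. Each detected member has 2 probes of different length, with 15 spots each. Those of miR-199a-3p, miR-199a-5p and miR-214-3p are complementary to the 3′ end of the mature strand, and those of miR-199b-5p to the 5′ arm of Mir199b. The 18-base miR-199a-5p probe fell by 0.48 ± 0.08 (SE, adjusted p = 0.00291), while the 19-base probe differed by -0.18 ± 0.07 (adjusted p = 0.0782). On the 21-base miR-199b-5p probe the fall was by 0.49 ± 0.10 (adjusted p = 0.00565), and on the 22-base probe by 0.29 ± 0.09 (adjusted p = 0.0405). The probes of miR-199a-3p differed by 0.15 ± 0.07 and 0.17 ± 0.07 (adjusted p = 0.121 and 0.0881), and those of miR-214-3p by -0.15 ± 0.09 and -0.11 ± 0.10 (adjusted p = 0.223 and 0.378). Of the 8 probes, 3 were called, each lower, where 38.9% of all 633 probes tested were called, 24.6% lower and 14.2% higher, and the groups did not overlap in 38.7%.

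Probe against probe, the 3p over 5p difference of miR-199a was 0.33 and 0.36 against the 19-base 5p probe and 0.63 and 0.65 against the 18-base one. The LPS and sham arrays did not overlap in any of the 4 probe pairs, which reuse the same 2 probes of each arm. For the ratio of summed arms, the groups did not overlap in 34.3% of the 35 hairpins, and in 17.1% with LPS higher. The 18-base over the 19-base miR-199a-5p probe gave a log2 ratio of -2.07 to -1.95 on LPS arrays and -1.75 to -1.67 on sham arrays, a difference of -0.29 between probes of the same miRNA. For miR-199b-5p the 21-base over the 22-base probe gave -1.44 to -1.29 on LPS arrays and -1.16 to -1.13 on sham arrays, a difference of -0.20. Among the 268 miRNAs with at least 2 tested probes, the ratio of the dimmest over the brightest probe did not overlap between groups in 21.6%, and was lower in LPS without overlap in 16.4%. Only 6 of the 268 had a difference as low as that of miR-199a-5p or lower, itself included, and 9 as low as that of miR-199b-5p. These probe ratios were examined after their values were seen and were not tested.

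**Figure D3:**
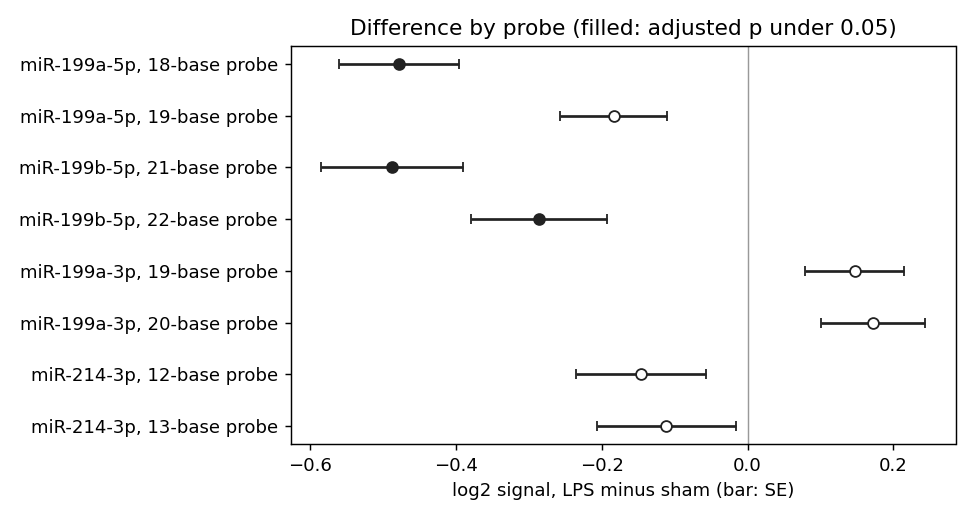
Difference in log2 signal, LPS minus sham (x axis), with its SE for each of the 8 probes of the detected miRNAs, filled where adjusted p is under 0.05. The shorter 5p probes of miR-199a and miR-199b lie near -0.48 and -0.49, the longer ones at -0.18 and -0.29, and the miR-199a-3p probes on the other side of 0.

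Among different members of the family, 2 pairs could be compared on each array. The log2 ratio of miR-214-3p over miR-199a-3p was -4.03, -3.99, -4.03 and -4.09 in LPS replicates 6, 10, 11 and 12, against -3.65, -3.75, -3.81 and -3.79 in sham replicates 5, 6, 7 and 8. The groups did not overlap, and the ratio differed by -0.28 (2-sided exact permutation p = 0.0286, adjusted p = 0.0571 over 2 pairs). No share over all pairs of miRNAs was counted. Among the 35 ratios of 3p over 5p, the groups did not overlap in 34.3%. For the paralogs, the ratio of miR-199b-5p over miR-199a-5p was 0.36, 0.41, 0.30 and 0.24 in LPS replicates 6, 10, 11 and 12, against 0.41, 0.46, 0.38 and 0.47 in sham replicates 5, 6, 7 and 8. The groups overlapped, and the difference was -0.10 (2-sided exact permutation p = 0.0857, adjusted p = 0.0857). Since 0.0286 is the smallest p, miR-214-3p over miR-199a-3p could not pass the adjustment over 2 pairs unless the other pair reached that p too. Of the 8 fits that left out 1 array this happened in 1, without LPS replicate 10 (miR-199b-5p over miR-199a-5p -0.13, miR-214-3p over miR-199a-3p -0.30, exact permutation, adjusted p = 0.0286 each).

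The 4 slide columns each held 1 LPS and 1 sham array. Within columns 1 to 4 the difference of miR-199b-5p was -0.44, -0.14, -0.36 and -0.44, and that of miR-199a-5p -0.39, -0.09, -0.29 and -0.22. Both kept their sign in 4 of 4 columns and were smallest in column 2, which held LPS replicate 10. For miR-199b-5p the constant sign follows from groups that do not overlap, as in 37.0% of all miRNAs tested. The share of miRNAs with a constant sign was not counted. MiR-199a-3p differed by 0.04, 0.29, 0.18 and 0.15, and miR-214-3p by -0.33, 0.05, -0.04 and -0.16. The miR-199a 3p over 5p ratio differed by 0.43, 0.38, 0.47 and 0.36, nearly alike in every column. With column as a block, miR-199a-5p was not called (adjusted p = 0.0529) and the arm ratio was (adjusted p = 8.74e-04).

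**Figure D4:**
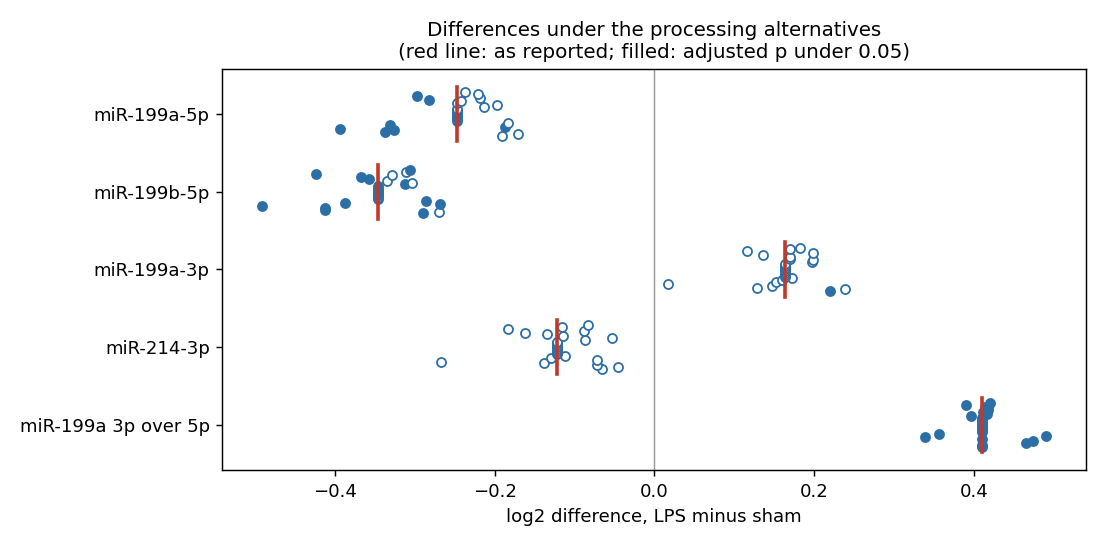
Log2 difference, LPS minus sham (x axis), of the 4 detected miRNAs and of the miR-199a 3p over 5p ratio under 25 processing alternatives (blue points, filled where adjusted p is under 0.05), with a red line for the value as reported. The arm ratio stays between 0.34 and 0.49 and is filled throughout, while the single miRNAs shift with scaling and with the arrays included. A factor shared by a whole array cancels in the arm ratio, so scaling by such a factor cannot move it.

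Other lists of stromal miRNAs were set beside the members. Their counts are to be read against all 338 miRNAs tested, of which 40.2% were called, 25.4% lower and 14.8% higher. In the smooth muscle and pericyte list, 2 of 5 were tested: miR-145a-5p fell by 0.44 ± 0.08 (limma, adjusted p = 0.00278), and miR-143-3p, from the same cluster, differed by 0.05 ± 0.08 (adjusted p = 0.591). Of 10 miRNAs listed as mesenchymal, 6 were tested and 0 were called, with differences of -0.11 for miR-22-3p up to 0.13 for miR-125b-5p. The count was also 0 at an unadjusted limma p under 0.05, and the smallest adjusted p by limma was that of miR-152-3p (adjusted p = 0.187). Of 17 fibrosis-linked miRNAs 15 were tested. Of these, 5 were higher, among them miR-21a-5p (2.22) and miR-132-3p (1.39), and 2 were lower, among them miR-192-5p (-0.28). MiR-132-3p was detected on 2 sham arrays and miR-21a-3p, also among the 5, on 0, so both were tested through the LPS group alone. The median difference was -0.18 over the 4 tested members of miR-199 and miR-214 and 0.10 over the fibrosis-linked list, against -0.08 over all miRNAs tested.

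The lists of markers of other cells are small, and their counts stand beside the 40.2% of all tested miRNAs that were called, 25.4% lower and 14.8% higher. The summed log2 level of the leukocyte list was 1.45 to 1.60 on LPS arrays and 1.03 to 1.54 on sham arrays, with 1 of 5 members higher (miR-223-3p). The red-cell list summed to 1.01 to 3.78 on LPS arrays and -0.97 to 1.64 on sham arrays, with 2 of 2 tested members higher. Of these, miR-144-3p was detected on 4 LPS but only 2 sham arrays, and so was tested through the LPS group alone. The tubule list summed to 4.76 to 4.93 on LPS arrays and 4.88 to 5.01 on sham arrays, with 3 of 4 tested members lower. The endothelial list summed to 4.10 to 4.27 on LPS arrays and 4.13 to 4.23 on sham arrays, with 0 of 2 called (miR-126a-3p -0.02 ± 0.06, unadjusted p = 0.784, and miR-126a-5p -0.02 ± 0.07, unadjusted p = 0.762). Their part in the differences of miR-199 was not tested.

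**Figure D5:**
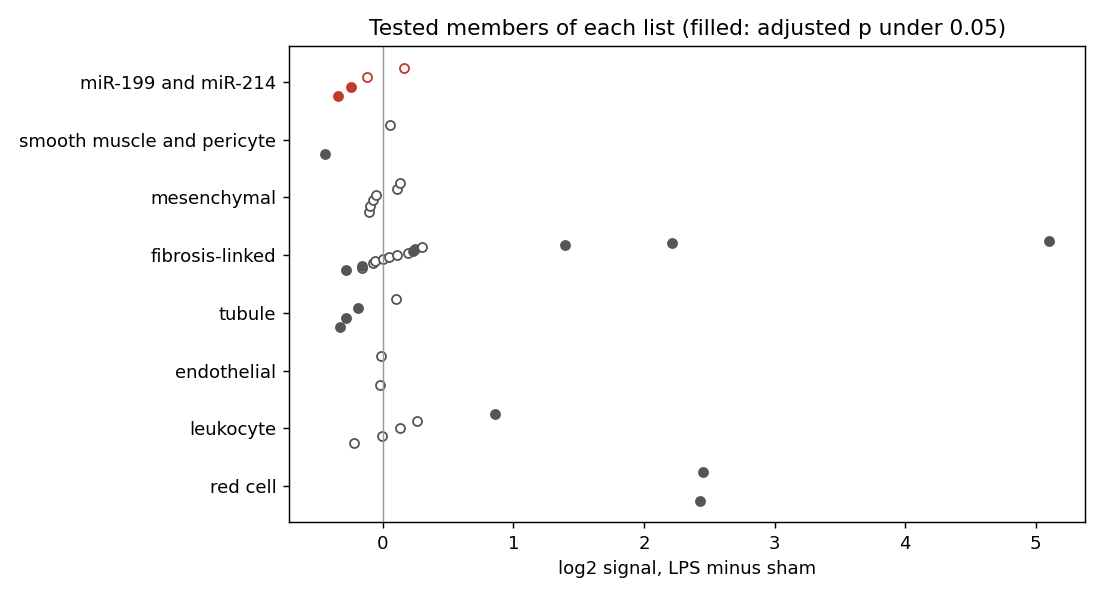
Log2 signal, LPS minus sham (x axis), for each tested member of 8 lists, filled where adjusted p is under 0.05. Of miR-199 and miR-214 (red), 2 points are filled, both below 0, the mesenchymal list has no filled point, and miR-21a-3p, at the far right, was detected on 0 of 4 sham arrays. Of all 338 miRNAs tested, 40.2% were called.

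Within groups the members varied together. After group means were subtracted, the Pearson correlation between any 2 of the 4 detected members was 0.91 to 0.96 over 8 arrays, which share the scaling of the array. Without that step the 5p arms correlated with each other at 0.97, and miR-199a-3p correlated with them at -0.20 and -0.22. Outside the family, the pattern most like miR-199b-5p over the 8 arrays was that of miR-669c-3p (r = 0.98), and the most like miR-199a-5p was that of miR-30e-5p (r = 0.97), followed for each by miR-361-5p (0.98 and 0.96). For miR-214-3p it was miR-28c (0.94) and for miR-199a-3p miR-674-3p (0.91). Of the tested miRNAs outside the family, 18.6% correlated above 0.8 with either 5p arm over the 8 arrays, 3.89% with miR-199a-3p and 2.99% with miR-214-3p. With group means subtracted these shares were 8.98%, 5.99% and 5.69%. LPS replicate 10 was the highest LPS array for each of the 4 detected members, and its part in the within-group correlations was not tested. With group means subtracted, miR-28a-5p was among the 3 nearest for all but miR-214-3p, at 0.93 to 0.96, and miR-497a-5p was nearest to miR-214-3p (0.97). These correlations describe 8 arrays and carry no test.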

How the data were processed

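The deposited scanner files hold spot intensities from Agilent Feature Extraction 12.0.3.1, per the submitters' processing notes. Per the file headers they were background-subtracted with spatial detrending and not scaled between arrays. The authors' deposited value table holds a linear ratio for every miRNA. Its values were compared with the scanner's totals for 383 miRNAs. With 1 factor per array and per miRNA removed, 100% of values matched to 0.01 log2. How the array factors arose is unknown. Column medians were 0.958, 0.960, 1.01 and 1.03 for LPS replicates 6, 10, 11 and 12, and 0.995, 1.06, 1.05 and 0.980 for sham replicates 5, 6, 7 and 8. It served as an alternative.

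Control and outlier-flagged spots were left out, spots of a probe averaged, and each array scaled by the 75th percentile of the 551 probes that all arrays detected. A probe was detected where over 50% of its spots were well above background. Probes of a miRNA were summed, floored at -4.68 (log2, the smallest detected value of an array, as a median of 8) and log2-transformed. The 338 miRNAs detected on every array of a group were tested with limma 3.58.1 in R 4.3.3 (2-sided, Benjamini-Hochberg, threshold 0.05), likewise 633 probes and the 3p over 5p ratio of 35 hairpins. The fits were tested on simulated data. The standard error of a probe's mean over its spots was 0.01 to 0.08 log2 units for the detected members. Arrays number 4 per group, which limits the precision.

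Members, lists and tests were chosen with earlier results of these data known. The named miRNAs are the members, the 3 nearest in pattern to each, up to 4 with the smallest p per list, and those sharing a seed with a member. Range ends are named besides.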

Additional observations from a re-analysis of the deposited data

Results flagged for a closer look

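Each set of 4 replicate values was searched for 1 array at a distance from the rest, which 5 of 112 sets had, and about 5.60 would by chance. Among the members this was miR-199a-5p, for which LPS replicate 10 was at -0.55 and the other LPS arrays at -0.79 to -0.76. Without that array the difference of miR-199a-5p was -0.30 (limma, adjusted p = 0.00792). LPS replicate 10 stood apart too for miR-28a-5p (-2.02, the others -2.31 to -2.28) and miR-331-3p (-0.90, the others -1.10 to -1.09), which are among the miRNAs closest in pattern to miR-199 within groups. Both were named for that likeness, so sharing this array follows in part from their choice and is no separate observation. Sham replicate 6 stood apart for miR-125b-5p (3.04, the others 2.75 to 2.79). The 3p arm of miR-21a read -4.56 in sham replicate 8, while the remaining sham arrays were at the floor (-4.68) and have no spread.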

How the results depend on the processing

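The miR-199a 3p over 5p ratio was called in all 25 alternatives (0.34 to 0.49, adjusted p = 1.22e-05 to 8.74e-04), and no member changed sign in any. A factor shared by a whole array cancels in this ratio, so scaling by such a factor could not move it. Changes of scaling factor, filter, floor or variance model left its size at 0.41. MiR-199a-5p lost the call in 12 and miR-199b-5p in 6. MiR-199a-5p was at -0.19 with the percentile over all probes, -0.17 without scaling, -0.18 with the brightest probe only, -0.25 without a filter and with slide column as a block, and -0.21 from the authors' deposited ratios (adjusted p = 0.0529 to 0.192). MiR-199b-5p was at -0.27 without scaling and -0.35 without a filter. MiR-199a-3p gained the call with the percentile over all probes (0.22, adjusted p = 0.0491; over its alternatives 0.0491 to 0.869). Members called numbered 0 without scaling and without a filter, and 1 with the brightest probe only, slide column as a block or the ratio table, in place of 2. Stromal probes called numbered 5 with spike-in scaling. That scaling moved the median of all miRNAs to -0.23, with miR-199a-3p at 0.02, miR-214-3p at -0.27, miR-199a-5p at -0.39 and miR-199b-5p at -0.49.

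Over all miRNAs, 136 were called, 60 without a filter (with 76.6% of values at the floor and 1881 miRNAs tested) and 80 with slide column as a block. Of the miRNAs tested, 25.4% were called lower, 15.7% with the percentile over all probes, 14.5% without scaling, 15.7% in the ratio table, 45.0% with spike-in scaling, 1.65% without a filter (1.54% higher) and 13.3% with the block. Among calls, 63.2% were lower, 49.1% with the percentile over all probes, 46.2% without scaling, 53.5% in the ratio table and 81.7% with spike-in scaling. Hairpins called numbered 12, and 48 of 723 without a filter. Listed miRNAs called numbered 13, 5 without a filter and 8 with the block.

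Leaving out each array gave 94 to 148 called (10.1% to 15.6% of tested higher, 16.3% to 29.4% lower), 0 to 2 members, 2 to 4 stromal probes, 6 to 13 hairpins and 6 to 15 listed miRNAs. Differences were -0.30 to -0.20 for miR-199a-5p, -0.42 to -0.30 for miR-199b-5p, 0.12 to 0.20 for miR-199a-3p, -0.18 to -0.05 for miR-214-3p, 0.39 to 0.42 for the arm ratio, -0.13 to -0.069 for miR-199b-5p over miR-199a-5p and -0.30 to -0.25 for miR-214-3p over miR-199a-3p. The cause of these changes was not tested. Pairing by slide column is the block given above, and it was not run for the ratios between miRNAs. No paired analysis was possible because the groups share only replicate number 6, as far as pairing by number goes.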

Other observations

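Because the 3p signal also holds the 3′ arm of Mir199b, its ratio over the other 5p arm was examined after the values were seen, without a test. The log2 ratio of miR-199a-3p over miR-199b-5p was 1.99, 1.95, 2.13 and 2.11 in LPS replicates 6, 10, 11 and 12, against 1.52, 1.52, 1.59 and 1.52 in sham replicates 5, 6, 7 and 8. The groups did not overlap, and the difference was 0.51. MiR-199b-5p alone already separated the groups, so this was to be foreseen. The groups did not overlap in 37.0% of all miRNAs tested and in 34.3% of the 35 ratios of 3p over 5p. Of miRNAs outside the list that share a seed with a member, miR-761, with the seed of miR-214-3p, was on the array and did not pass the detection filter.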
